A study of Homo sapiens with 6 samples.

Results

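To examine how drug metabolising enzymes were expressed when FOXC1 was targeted, 112 protein-coding genes were followed in RNA-seq of J82, a human bladder cancer cell line. They were chosen by symbol out of 57820 rows of the count table, with earlier results of these data known. They belong to 11 groups: the aldehyde dehydrogenases (ALDH), the AKR1 aldo-keto reductases, the cytosolic and the microsomal glutathione transferases (GST and MGST), the UDP-glucuronosyltransferases UGT1A and UGT2, the sulfotransferases (SULT), and the cytochrome P450 groups CYP1A, CYP2, CYP3A and CYP4. CYP2R1 and CYP2J2 were left out of the members by the choice of symbols. The 3 control libraries came from J82 cells that carried the vector alone. The 3 libraries labelled FOXC1 KO came from J82 cells that had received LentiCRISPRv2, a lentivirus that delivers Cas9 and a guide RNA, against FOXC1, a forkhead transcription factor. The KO cells had been selected with puromycin per the study's methods, and whether the control cells were is not given in the sources used here. All cells were grown in DMEM with 10% FBS, and the labels name no drug treatment. Knockout cells were checked at the protein level by the study and are called clones there, but how many clones gave the 3 libraries is not given in the sources used here. With no label that ties the libraries to separate cultures, every p-value below measures the spread between these libraries, which may be technical.

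Drug metabolism is usually described in phases. In phase I, cytochromes P450, aldehyde dehydrogenases and aldo-keto reductases oxidise or reduce a compound. In phase II, glutathione transferases, glucuronosyltransferases and sulfotransferases attach a polar group that helps the product leave the cell. Glutathione also binds platinum, and high ALDH activity is widely used to mark stem-like tumour cells, so these families are often studied beside cisplatin resistance. Most CYP2, CYP3A and UGT2 enzymes are best known from the liver.

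The libraries held between 18408134 and 25350908 assigned reads, with 2.07% to 2.70% of them on mitochondrial genes. Log expression correlated at 0.994 or more between libraries of the same group and at 0.985 or less between libraries of different groups. FOXC1 itself was at 18.4, 16.9 and 19.3 CPM (read counts scaled to library size by TMM) in the control libraries and at 24.1, 22.2 and 21.1 CPM in the KO libraries. The groups did not overlap, and the KO libraries were the higher ones (log2 fold change 0.30 ± 0.091 SE, adjusted p = 0.0127). The RNA level therefore did not check the label, and KO is used here as the labels use it. Of 18 urothelial markers 8 had enough counts to be tested and 7 were lower in KO, beside 8.39% of all tested genes called lower. These were KRT8, KRT18, KRT19, FOXA1, PPARG, GATA3 and EPCAM. KRT7, the other tested marker, overlapped at 992 ± 103 and 948 ± 68.3 CPM (SD, n = 3, log2 fold change -0.065, adjusted p = 0.575 by edgeR). The uroplakins, KRT5, KRT13, KRT20 and CDH1 were at or near 0. TP63, too low to be tested, had 1 count in each control library and 4, 9 and 5 counts in KO libraries. The summed urothelial markers reached 3183 to 4005 CPM in control and 2491 to 2767 CPM in KO libraries. The 8 hepatocyte markers summed to at most 0.49 CPM in any library. The 7 blood and endothelial markers found in the table summed to 0.446 to 0.904 CPM in control and 0.793 to 1.58 CPM in KO libraries.

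Most of the 112 genes had too few reads to be tested. The test kept 47 members, and of the other 65 members 31 were at 0 in all libraries and 53 had at most 3 counts in every library. The highest count of an untested member in any library was 16. A count of 3 corresponds to 0.118 to 0.163 CPM, depending on the library, and values under it rest on 1 or 2 reads. All 10 UGT2 genes, 11 of 13 SULT genes, 12 of 15 CYP2 genes and 10 of 12 CYP4 genes were among the untested ones. By contrast, 13 of 19 ALDH genes, 8 of 10 AKR1 genes, 10 of 17 cytosolic GST genes and all 3 MGST genes were tested.

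Per length, AKR1B1, aldose reductase, stood far above the other members at 956 CPM per kb of exon sequence, the mean of the 6 libraries. It was followed by GSTP1 at 144 CPM per kb, GSTO1 at 81.8, MGST1 at 75.1, AKR1C3 at 62.5 and ALDH18A1 at 36.4. AKR1B1 ranked 10 among all genes by mean CPM and took 57.6% to 61.6% of all member counts. The members together took 0.603% to 0.629% of all counts in control and 0.526% to 0.576% in KO libraries. Without AKR1B1 these shares were 0.236% to 0.242% and 0.223% to 0.229%, so the groups did not overlap either way.

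Calls required an adjusted p of edgeR below 0.05 together with a change of more than 1.3-fold. Among the 47 tested members 13 were lower in KO, a share of 27.7%, beside 8.39% of all 15647 tested genes. Another 5 members were higher in KO, a share of 10.6%, beside 7.57% of all tested genes. The lower members were ALDH1L1, UGT1A1, UGT1A6, SULT1C2, CYP3A5, AKR1B10, CYP2U1, CYP3A7, ALDH5A1, CYP4V2, AKR1C1, ALDH3B1 and ALDH4A1, and the higher members were CYP4F11, AKR1C2, ALDH1B1, ALDH1A3 and SULT1A1. In 29 of 47 members (61.7%) the CPM of the groups did not overlap, with KO below in 21 and above in 8, beside 41.3% of all tested genes in either direction. The median log2 fold change of the tested members was -0.10, beside a median of -0.00084 over all tested genes. That median was -0.15 without CTRL replicate 2, -0.19 without CTRL replicate 3, -0.16 without KO replicate 2 and -0.15 without KO replicate 3. Under a threshold of 2-fold 5 members were lower and 2 higher, beside 2.05% and 2.02% of all tested genes. The 5 were ALDH1L1, UGT1A1, UGT1A6, SULT1C2 and CYP3A5, and the 2 were CYP4F11 and AKR1C2. With glmTreat, which tests against the 1.3-fold threshold itself, 6 members were lower and 3 higher, beside 3.16% and 3.3%. By the adjusted p alone 17 were lower and 7 higher, beside 14.3% and 15.2%. Because these are bulk libraries, fewer expressing cells and less RNA per cell cannot be told apart, and the part of the lower urothelial markers in these counts was not tested.

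Some low genes passed the filter only because 1 group was high. With a minimum of 0.419 CPM in all 6 libraries, 38 members were left, of which 9 were lower (23.7%) and 4 higher (10.5%), beside 8.12% and 7.27% of the 14388 genes that met the same minimum. UGT1A1, UGT1A6, SULT1C2, CYP3A5 and CYP4F11 were the called members that this removed. Of the members past 2-fold it left only ALDH1L1 lower and AKR1C2 higher. The counts by glmTreat and by the adjusted p alone were not restricted in this way.

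**Figure D1:**
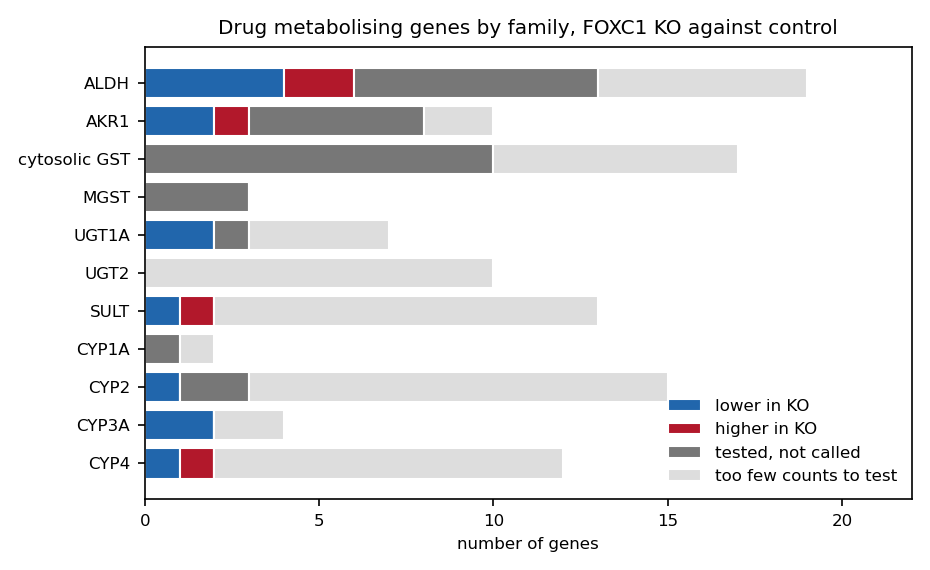
Number of drug metabolising genes in each of the 11 families (vertical axis, family; horizontal axis, number of genes), split into lower in KO (blue), higher in KO (red), tested and not called (dark grey) and too few counts to test (light grey). The ALDH and AKR1 families hold 6 and 3 called genes, and no cytosolic GST, MGST or UGT2 gene was called. Of all tested genes 8.39% were lower and 7.57% higher.

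The ALDH family oxidises aldehydes to acids. It had 4 members lower (30.8%, beside 8.39% of all tested genes) and 2 higher (15.4%, beside 7.57%) among 13 tested. The median log2 fold change was -0.05. ALDH1L1 (ENSG00000144908.9, chr3:125822405-125916837 of hg19, minus strand), which turns formyltetrahydrofolate into tetrahydrofolate in the cytosol, fell most. Its level was 4.46, 3.89 and 3.38 CPM in the control libraries and 0.761, 0.951 and 0.807 CPM in the KO libraries. All KO libraries were thus well below all control libraries, and ALDH1L1 was lower by 4.65-fold (log2 fold change -2.19 ± 0.20 SE, adjusted p = 1.09e-09).

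ALDH5A1 (chr6:24495095-24537435, plus strand), the succinic semialdehyde dehydrogenase that ends GABA breakdown, stood at 58.4, 51.5 and 53.4 CPM in control and at 31.0, 30.6 and 34.1 CPM in KO libraries. It was 1.71-fold lower, again without overlap (log2 fold change -0.77 ± 0.081 SE, adjusted p = 1.53e-08). ALDH3B1, which acts on lipid-derived aldehydes, had 50.1, 43.2 and 43.3 CPM in control and 31.3, 35.2 and 28.1 CPM in KO libraries (log2 fold change -0.53 ± 0.089 SE, adjusted p = 3.57e-05). ALDH4A1, a mitochondrial enzyme of proline breakdown, had 15.3, 13.9 and 11.5 CPM against 9.56, 10.6 and 10.6 CPM (log2 fold change -0.40 ± 0.11 SE, adjusted p = 0.00658). The control libraries of ALDH4A1 were spread more widely than those of the other lower ALDH genes named here relative to the difference, and its fold change dropped under the threshold when CTRL replicate 1 (log2 fold change -0.31) or KO replicate 1 (-0.36) was left out. In addition, 36.3% of the 75-base stretches of ALDH4A1 transcripts are shared with the overlapping gene RP13-279N23.2, so its count is uncertain.

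Both higher ALDH genes make acids from aldehydes of the retinoid or ethanol pathways. ALDH1B1 (chr9:38392699-38398658, plus strand), a mitochondrial enzyme that accepts acetaldehyde and retinaldehyde, was at 59.6, 54.7 and 55.5 CPM in control and at 106, 97.0 and 95.3 CPM in KO libraries. It rose 1.76-fold (log2 fold change 0.81 ± 0.074 SE, adjusted p = 9.95e-10). ALDH1A3 (chr15:101417919-101456831, plus strand), which makes retinoic acid from retinaldehyde, was at 33.1, 31.8 and 34.1 CPM in control and at 49.6, 43.8 and 53.9 CPM in KO libraries. This was a 1.49-fold rise (log2 fold change 0.57 ± 0.084 SE, adjusted p = 4.63e-06). Since 33.3% of its exon bases overlap other annotated genes, ALDH1A3-AS1 among them, reads of the antisense gene cannot be told apart from its own without the strand. ALDH1A1 and ALDH1A2, the other retinaldehyde dehydrogenases of this group, had at most 11 counts in any library and were not tested. The summed CPM of the 3 ALDH1A genes, nearly all of it ALDH1A3, went from 33.6 ± 1.34 to 49.5 ± 5.16 (SD, n = 3, exact permutation p = 0.1, the smallest that 3 libraries against 3 can give).

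The most abundant of the other ALDH genes moved little. ALDH18A1, which makes a precursor of proline, was at 130 ± 6.64 CPM in control and 144 ± 3.21 CPM in KO libraries (SD, n = 3), and ALDH9A1, an enzyme of carnitine synthesis, at 98.8 ± 4.98 and 110 ± 3.66 CPM, neither past the test (adjusted p = 0.115 and 0.113 by edgeR). ALDH3A2, the fatty aldehyde dehydrogenase, had an adjusted p of 0.00142 but a change under the fold threshold (138 ± 2.48 to 112 ± 5.75 CPM, log2 fold change -0.30). ALDH2, the main acetaldehyde dehydrogenase, had overlapping groups of 36.7 to 45.3 CPM and 43.8 to 52.5 CPM (log2 fold change 0.24, adjusted p = 0.0343).

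**Figure D2:**
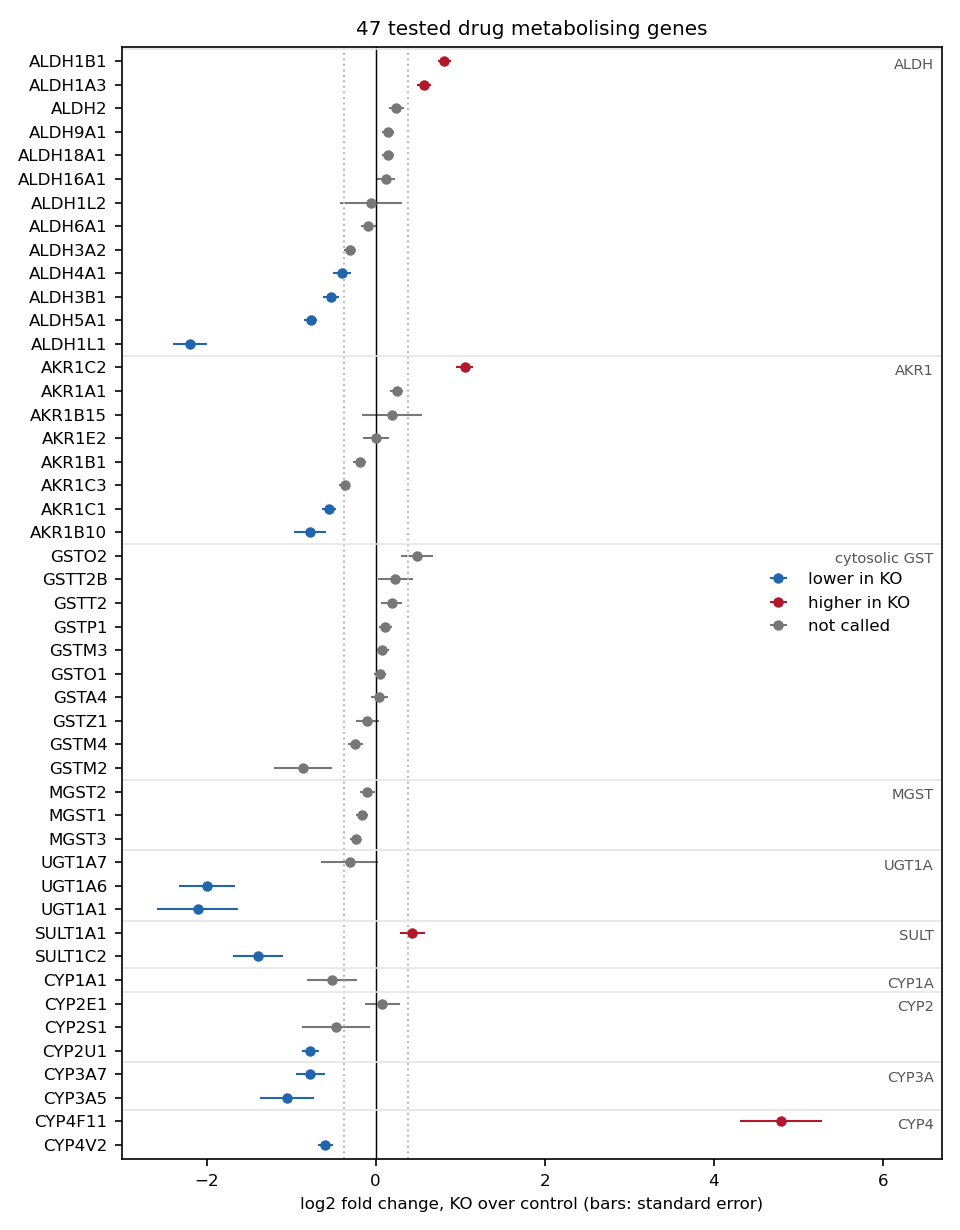
Log2 fold change, KO over control, of the 47 tested members (horizontal axis; bars, standard error from the edgeR fit), grouped by family, with dotted lines at the 1.3-fold threshold. Lower genes (blue) lie left, higher genes (red) right, and CYP4F11 stands apart at 4.79, a fitted value that depends on the prior count, while cytosolic GST and MGST genes (grey) were not called.

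The AKR1 family reduces carbonyl groups of sugars, steroids and lipid aldehydes. It had 2 members lower (25%, beside 8.39% of all tested genes) and 1 higher (12.5%, beside 7.57%) among 8 tested. AKR1B1 (chr7:134127108-134144036, minus strand), which reduces glucose to sorbitol in the polyol pathway, had 3951, 3582 and 3632 CPM in control and 3035, 3488 and 3271 CPM in KO libraries. The KO libraries all lay below the control libraries, but AKR1B1 missed both thresholds and was not called (log2 fold change -0.19 ± 0.077 SE, adjusted p = 0.0623). Its neighbour AKR1B10 (chr7:134212319-134226164, plus strand), which reduces retinaldehyde and other aldehydes, was far less abundant and was lower. Its level was 4.14, 3.19 and 2.79 CPM in control and 2.23, 1.55 and 2.17 CPM in KO libraries (log2 fold change -0.78 ± 0.19 SE, adjusted p = 0.00213). AKR1A1, aldehyde reductase, missed the fold threshold at 78.9 ± 5.71 and 93.8 ± 7.65 CPM (SD, n = 3, log2 fold change 0.25, adjusted p = 0.0142 by edgeR).

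In the AKR1C cluster on chromosome 10, neighbouring genes moved in opposite directions. AKR1C1 (ENSG00000187134.8, chr10:5005445-5025475, plus strand), a 20-alpha-hydroxysteroid dehydrogenase that inactivates progesterone, had 52.4, 54.0 and 51.8 CPM in control and 33.5, 39.1 and 35.2 CPM in KO libraries. AKR1C2 (ENSG00000151632.12, chr10:5029967-5060223, minus strand), a 3-alpha-hydroxysteroid dehydrogenase that inactivates dihydrotestosterone, had 7.76, 8.03 and 8.84 CPM in control and 15.8, 17.96 and 17.3 CPM in KO libraries. Neither gene overlapped between groups. AKR1C1 was 1.47-fold lower (log2 fold change -0.55 ± 0.080 SE, adjusted p = 3.82e-06), while AKR1C2 was 2.08-fold higher (log2 fold change 1.05 ± 0.10 SE, adjusted p = 3.34e-09). The ratio of AKR1C2 to AKR1C1 counts was 0.148, 0.149 and 0.171 in control and 0.472, 0.459 and 0.493 in KO libraries (exact two-sided permutation p = 0.1, the smallest possible here). AKR1C3 (chr10:5077546-5149878, plus strand), a 17-beta-hydroxysteroid dehydrogenase and prostaglandin F synthase, had 279, 276 and 271 CPM in control and 200, 217 and 224 CPM in KO libraries. It stayed just under the fold threshold (log2 fold change -0.37 ± 0.069 SE, adjusted p = 0.00014) and passed it without KO replicate 3 (-0.41).

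These genes are close copies. Of the 75-base stretches of their annotated transcripts, the length of 1 read, 18.5% of those of AKR1C1 and 27.1% of those of AKR1C2 also occur in another gene, most often in each other, so the split of reads between them is uncertain. The sum over the 4 AKR1C genes does not depend on how counted reads were split between them. It went from 336.2 ± 4.48 to 266.7 ± 15.1 CPM (SD, n = 3, log2 ratio -0.33, exact permutation p = 0.1, 0.129 after Benjamini-Hochberg over 9 sums). Reads left out because they fit several genes, if any, would be missing from the sum. The fall of the sum came mostly from AKR1C3, the most abundant of them.

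The copies extend into the promoter windows of both genes, which is why both are shown. The 250 bases before a RefSeq start of each gene on GRCh38.p14 are given 5′ to 3′ in the direction of transcription. They lie at chr10:4963165-4963414 (plus strand) for AKR1C1 and chr10:5003858-5004107 (minus strand) for AKR1C2. The annotated AKR1C2 gene also reaches further upstream than this start. Bases outside the longest shared run are in capitals.
AKR1C1: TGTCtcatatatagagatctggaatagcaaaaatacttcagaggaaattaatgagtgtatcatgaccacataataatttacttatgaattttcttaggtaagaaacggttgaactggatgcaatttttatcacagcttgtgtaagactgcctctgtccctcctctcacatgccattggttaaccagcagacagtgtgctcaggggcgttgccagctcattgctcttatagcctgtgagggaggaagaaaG
AKR1C2: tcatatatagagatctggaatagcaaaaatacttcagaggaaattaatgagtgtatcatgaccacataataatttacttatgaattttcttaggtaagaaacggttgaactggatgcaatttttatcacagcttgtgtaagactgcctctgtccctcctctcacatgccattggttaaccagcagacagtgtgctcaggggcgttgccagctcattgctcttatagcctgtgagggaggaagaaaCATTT
The shared run is 245 bases long. Over the full windows of 300 bases, which reach 50 bases past the start, the pair differed by 20 edits, while AKR1C3 differed from AKR1C1 by 88 and from AKR1C2 by 91. The genes that moved apart thus carry nearly the same letters in this window, and other starts of these genes were not compared.

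**Figure D3:**
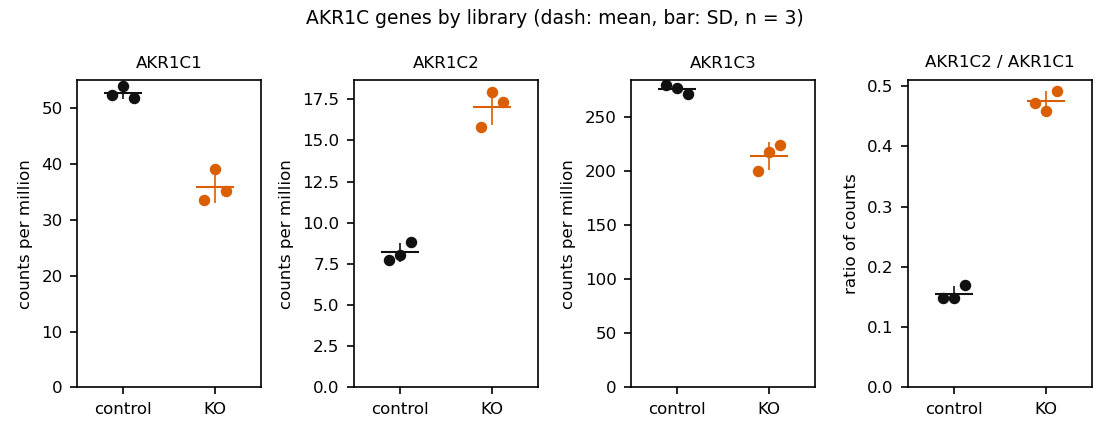
CPM of AKR1C1, AKR1C2 and AKR1C3 and the ratio of AKR1C2 to AKR1C1 counts in each library (points), with the group mean (dash) and SD (bar, n = 3), on axes that start at 0. AKR1C1 and AKR1C3 lie lower and AKR1C2 higher in KO, and the ratio runs from 0.148 to 0.171 in control and from 0.459 to 0.493 in KO libraries.

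The glutathione transferases, which join glutathione to reactive compounds, held no called gene, beside 8.39% of all tested genes lower and 7.57% higher. Whether 0 calls among so few genes differ from these shares was not tested. Among 10 tested cytosolic GST genes the median log2 fold change was 0.06, and among 3 MGST genes it was -0.16. GSTP1 (chr11:67351213-67354127, plus strand), the main GST of many tumours, had 272, 233 and 227 CPM in control and 252, 292 and 249 CPM in KO libraries. Its groups overlapped (log2 fold change 0.12 ± 0.078 SE, adjusted p = 0.282). GSTO1 was at 136 ± 7.67 and 141 ± 7.22 CPM and GSTM3 at 50.4 ± 2.85 and 53.3 ± 0.937 CPM (SD, n = 3), also overlapping. GSTM4 passed the adjusted p alone (36.5 ± 3.35 to 30.8 ± 2.29 CPM, log2 fold change -0.24, adjusted p = 0.0353).

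MGST1, a membrane enzyme of the endoplasmic reticulum and mitochondria, had 595, 605 and 571 CPM in control and 498, 523 and 560 CPM in KO libraries (log2 fold change -0.16 ± 0.070 SE, adjusted p = 0.0785). MGST3 was at 153 ± 2.17 and 130 ± 1.81 CPM (SD, n = 3), without overlap but under the fold threshold (log2 fold change -0.23, adjusted p = 0.00863 by edgeR). MGST2 overlapped, at 22.8 ± 0.456 and 21.3 ± 1.48 CPM. GSTT2 and GSTT2B are close copies, with 78.1% and 83.4% of their 75-base stretches found in another gene, and their sum had a log2 ratio of 0.19 (exact permutation p = 0.2). The sums over GSTA and GSTM, whose expressed members are mostly distinct in sequence, had log2 ratios of 0.023 and -0.053 (exact permutation p = 0.9 and 0.1), and the GSTA sum was almost wholly GSTA4. GSTM1 and GSTT1, both absent from the genomes of many people as a common deletion, had at most 1 count in any library and were picked for mention after their values were seen.

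The UGT1A genes sit in nested fashion on chromosome 2, each with a first exon of its own in front of exons that all share, and their products attach glucuronic acid. UGT1A6 (ENSG00000167165.14, chr2:234600253-234681946, plus strand), which conjugates small phenols, had 1.03, 1.35 and 1.57 CPM in control and 0.543, 0.278 and 0.212 CPM in KO libraries. UGT1A1 (chr2:234668916-234681946, plus strand), which conjugates bilirubin, had 0.446, 0.532 and 0.786 CPM in control and 0.0543, 0.198 and 0.127 CPM in KO libraries. Both were lower without overlap, UGT1A6 by 3.82-fold (log2 fold change -1.99 ± 0.33 SE, adjusted p = 2.8e-05) and UGT1A1 by 4.64-fold (log2 fold change -2.11 ± 0.47 SE, adjusted p = 0.00109). These rest on few reads, 23, 33 and 40 against 10, 7 and 5 counts for UGT1A6 and 10, 13 and 20 against 1, 5 and 3 counts for UGT1A1. UGT1A7, an extrahepatic form, overlapped at 0.432 to 1.11 CPM and 0.435 to 0.793 CPM (log2 fold change -0.31, adjusted p = 0.533).

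How reads of the shared exons were divided is not given in the sources used here, and 40.4% of the 75-base stretches of UGT1A6 and 49.3% of those of UGT1A1 occur in another gene. The sum over 7 UGT1A genes went from 2.72 ± 0.0827 to 1.11 ± 0.140 CPM (SD, n = 3; log2 ratio -1.30, exact permutation p = 0.1, 0.129 after Benjamini-Hochberg over 9 sums). The lowest control sum was 2.63 CPM and the highest KO sum 1.27 CPM, so the fall did not depend on how counted reads were divided among these 7. Reads of the shared exons that were left out, if any, are in no row, and the sum cannot account for them. UGT1A3 and UGT1A5, which share the same exons, are not in the sum, and reads divided with them could still move it. The UGT2B genes summed to at most 4 counts in any library.

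Sulfotransferases transfer sulfate to phenols and steroids. SULT1C2 (chr2:108905095-108926371, plus strand) had 1.16, 1.39 and 1.65 CPM in control and 0.272, 0.555 and 0.722 CPM in KO libraries, 2.71-fold lower (log2 fold change -1.39 ± 0.29 SE, adjusted p = 0.000552). SULT1A1 (chr16:28616517-28625600, minus strand), the main phenol sulfotransferase, had 2.99, 3.19 and 2.99 CPM in control and 4.62, 4.16 and 3.70 CPM in KO libraries. Its rise was small (log2 fold change 0.44 ± 0.15 SE, adjusted p = 0.0273), and the adjusted p ranged from 0.0231 to 0.128 over the alternatives. It rose above 0.05 without CTRL replicate 1 (adjusted p = 0.0501), CTRL replicate 3 (0.0833), KO replicate 1 (0.112) or KO replicate 2 (0.0679). The sum over 4 SULT1A genes, nearly all of it counted as SULT1A1, went from 3.25 ± 0.130 to 4.24 ± 0.494 CPM (SD, n = 3, log2 ratio 0.38, exact permutation p = 0.1). Of the 75-base stretches, 22% of SULT1A1, 79.9% of SULT1A3 and 96.6% of SULT1A4 also occur in another gene, so the count of each is uncertain.

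The cytochromes P450 insert oxygen into drugs, steroids and fatty acids. Both tested CYP3A genes were lower, beside 8.39% of all tested genes. CYP3A7 (chr7:99302659-99332819, minus strand), known as the fetal liver form, had 3.43, 3.11 and 4.21 CPM in control and 2.23, 2.06 and 2.04 CPM in KO libraries (log2 fold change -0.77 ± 0.17 SE, adjusted p = 0.000847). CYP3A5 (chr7:99245817-99277619, minus strand), the usual form outside the liver, had 0.847, 1.15 and 0.707 CPM in control and 0.435, 0.357 and 0.510 CPM in KO libraries (log2 fold change -1.05 ± 0.32 SE, adjusted p = 0.0144). Neither overlapped, but CYP3A5 was no longer called without CTRL replicate 2 (adjusted p = 0.112) or without KO replicate 2 (0.0764), and its adjusted p ranged from 0.0102 to 0.122 over the alternatives. The CYP3A sum went from 4.52 ± 0.406 to 2.62 ± 0.173 CPM (SD, n = 3; log2 ratio -0.79, exact permutation p = 0.1). CYP3A4, the main drug metabolising P450 of liver, had at most 4 counts in any library. Of CYP3A7, 41.4% of the 75-base stretches are shared with the readthrough gene CYP3A7-CYP3A51P.

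CYP2U1 (chr4:108852705-108874617, plus strand), which hydroxylates arachidonic acid and other fatty acids, had 20.1, 18.02 and 19.1 CPM in control and 12.1, 10.1 and 11.5 CPM in KO libraries. It was 1.70-fold lower (log2 fold change -0.77 ± 0.099 SE, adjusted p = 5.31e-07). CYP2E1, the ethanol oxidising form, and CYP2S1 overlapped, with 1.58 ± 0.234 and 1.66 ± 0.109 CPM for CYP2E1 and 0.455 ± 0.0514 and 0.345 ± 0.172 CPM for CYP2S1 (SD, n = 3). CYP1A1, the classic target of the aryl hydrocarbon receptor, was at 0.737 to 1.16 CPM in control and 0.595 to 0.706 CPM in KO libraries and did not pass the test (log2 fold change -0.52 ± 0.29 SE, adjusted p = 0.192).

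Within CYP4, 2 genes were tested and they moved in opposite directions. CYP4V2 (chr4:187112721-187134617, plus strand), a fatty acid omega-hydroxylase tied to a retinal dystrophy, had 17.3, 17.9 and 18.04 CPM in control and 11.6, 11.7 and 11.98 CPM in KO libraries (log2 fold change -0.59 ± 0.094 SE, adjusted p = 1.43e-05). CYP4F11 (ENSG00000171903.12, chr19:16023177-16045677, minus strand), which omega-hydroxylates long-chain fatty acids and vitamin K, had 0, 2 and 1 counts in control and 23, 36 and 28 counts in KO libraries. It was thus nearly undetected in control and present in every KO library at 1.19 to 1.43 CPM. The summed counts, 3 against 87, gave a ratio of 31.0 with an exact 95% interval of 10.3 to 153 that covers counting error only (adjusted p = 7.62e-09).

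**Figure D4:**
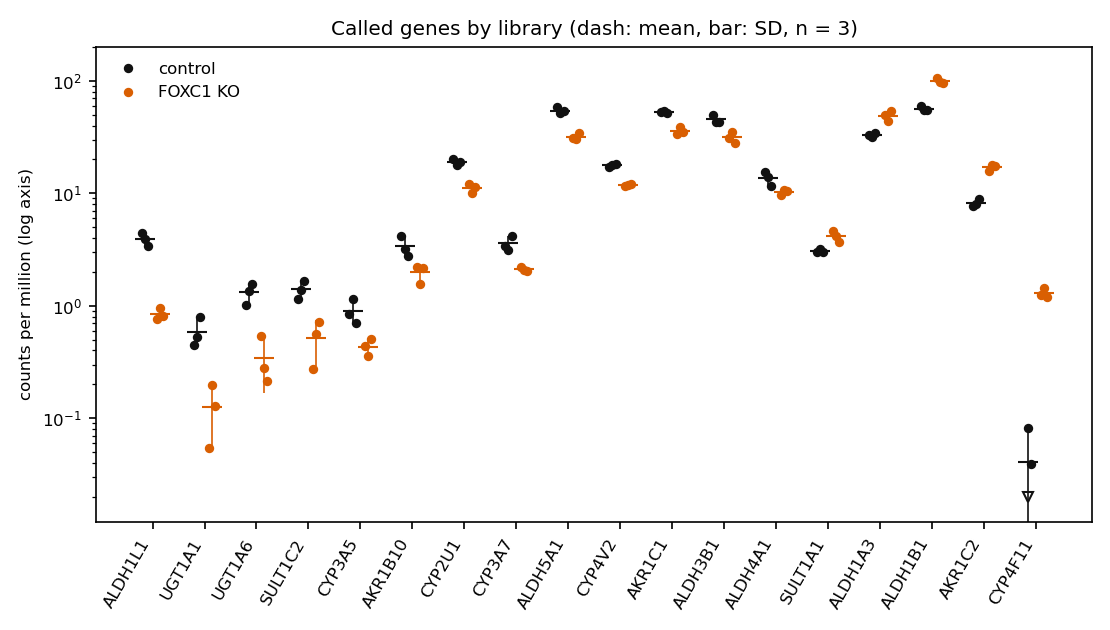
CPM (log axis) of the 18 called members in each library (points; control black, KO orange), with the mean (dash) and SD (bar, n = 3); the open triangle marks a control library in which CYP4F11 was at 0. In all 18 genes the libraries of the groups do not overlap, beside 41.3% of all tested genes. The 18 were called on these same libraries, so this separation is no separate result.

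RefSeq held promoter windows of 300 bases (250 before and 50 after the start) for 16 of the 18 called members, and 3 short motifs were searched in them on both strands. The antioxidant response element core TGACNNNGC, known to bind NFE2L2, was present in 3 of 12 windows of lower members (UGT1A6, SULT1C2 and CYP4V2) and in 0 of 4 windows of higher members, beside 13.3% of all 35116 windows. The xenobiotic response element core GCGTG, known to bind the aryl hydrocarbon receptor, was in 3 of 12 (ALDH5A1, CYP2U1 and CYP4V2) and 1 of 4 (ALDH1A3), beside 36.5%. The forkhead core GTAAACA was in 0 of 12 and 1 of 4 (CYP4F11), beside 3.42%. These are matches of letters only, and none of the motifs overlapped another in these windows. Each window covers a RefSeq start, and other starts of these genes were not searched.

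The matches in UGT1A6 and CYP4F11, a strongly lower and the most raised member, are shown in the 250 bases before the start on GRCh38.p14, at chr2:233692640-233692889 (plus strand) and chr19:15934530-15934779 (minus strand). Capitals mark the antioxidant response element core in UGT1A6 and the forkhead core, read on the opposite strand, in CYP4F11.
UGT1A6: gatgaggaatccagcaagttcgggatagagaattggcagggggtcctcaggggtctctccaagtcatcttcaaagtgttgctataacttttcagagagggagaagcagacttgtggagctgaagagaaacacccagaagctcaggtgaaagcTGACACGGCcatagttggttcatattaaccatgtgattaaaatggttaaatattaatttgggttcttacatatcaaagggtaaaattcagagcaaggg
CYP4F11: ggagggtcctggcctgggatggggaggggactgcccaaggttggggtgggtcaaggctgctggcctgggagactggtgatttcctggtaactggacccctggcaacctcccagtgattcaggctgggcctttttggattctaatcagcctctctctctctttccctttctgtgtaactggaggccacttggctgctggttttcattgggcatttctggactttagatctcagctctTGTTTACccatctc
The UGT1A6 match begins 98 bases before the start and the CYP4F11 match 14 bases before it.

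Other genes of drug metabolism were followed in 3 lists of regulators, further phase I genes and phase II supply genes, of which 61 of 78 were tested, with 5 lower (8.2%) and 9 higher (14.8%), beside 8.39% and 7.57% of all tested genes. Among 18 tested regulators 1 was lower (5.56%, beside 8.39% of all tested genes) and 0 were higher (beside 7.57%), with a median log2 fold change of 0.11. The lower one was HNF4G, a nuclear receptor, at 6.55, 8.35 and 7.86 CPM in control and 5.05, 4.36 and 3.57 CPM in KO libraries (log2 fold change -0.83 ± 0.14 SE, adjusted p = 3.08e-05). The regulators best known for these families, NFE2L2 and the aryl hydrocarbon receptor AHR, had overlapping groups, at 109 ± 7.42 and 107 ± 8.99 CPM for NFE2L2 and 62.4 ± 3.34 and 59.7 ± 4.80 CPM for AHR (SD, n = 3). Another 6 regulators, MAFF, PPARA, CEBPB, TIPARP, AHRR and KEAP1, were higher in KO without overlap and with an adjusted p under 0.05 but missed the fold threshold (log2 fold change 0.20 to 0.37). Beside this, 15.2% of all tested genes were higher by the adjusted p alone. In 41.3% of all tested genes the groups did not overlap, in either direction. NFE2L2, AHR and these 6 genes were picked for mention after their values were seen.

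Among 25 tested further phase I genes and electron donors 4 were lower (16%, beside 8.39% of all tested genes) and 5 higher (20%, beside 7.57%), with a median log2 fold change of 0.01. NQO1, a quinone reductase, was at 2802, 2610 and 2534 CPM in control and 1860, 1851 and 1808 CPM in KO libraries (log2 fold change -0.53 ± 0.072 SE, adjusted p = 1.63e-06). CYB5A, which passes electrons to cytochromes P450, was at 240 ± 1.39 CPM in control and 138 ± 7.998 CPM in KO libraries (SD, n = 3; log2 fold change -0.79 ± 0.069 SE, adjusted p = 3.46e-10 by edgeR). PTGR1, a reductase of prostaglandins and alkenals, and EPHX1, the microsomal epoxide hydrolase, were lower as well (log2 fold change -0.41 and -0.40). Higher genes included AOX1, aldehyde oxidase (log2 fold change 0.77), CYP1B1 (0.78), XDH (0.71) and CYP2J2 (0.42).

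Among 18 tested genes of cofactor supply and other phase II steps 0 were lower (beside 8.39% of all tested genes) and 4 higher (22.2%, beside 7.57%), with a median log2 fold change of 0.08. SLC26A2, a sulfate transporter, was at 55.1 ± 2.46 and 86.6 ± 4.59 CPM and SLC35D1, a UDP-glucuronic acid transporter, at 33.8 ± 0.992 and 49.3 ± 1.84 CPM (SD, n = 3). Thus 2 carriers of conjugation substrates were higher (log2 fold change 0.65 and 0.54). CHAC1, which breaks down glutathione, and GGT5, which cleaves glutathione outside the cell, were the others (log2 fold change 0.47 and 2.9, GGT5 from 1 to 3 counts in control and 11 to 20 counts in KO libraries). The carriers SLC35B2 and SLC35B3 overlapped (log2 fold change -0.041 and -0.0068). Of the genes not called, 2 were higher and 1, PAPSS2, lower without overlap and with an adjusted p under 0.05 (PAPSS2 log2 fold change -0.32, adjusted p = 0.000794 by edgeR). SLC35B2, SLC35B3 and PAPSS2 were picked for mention after their values were seen.

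**Figure D5:**
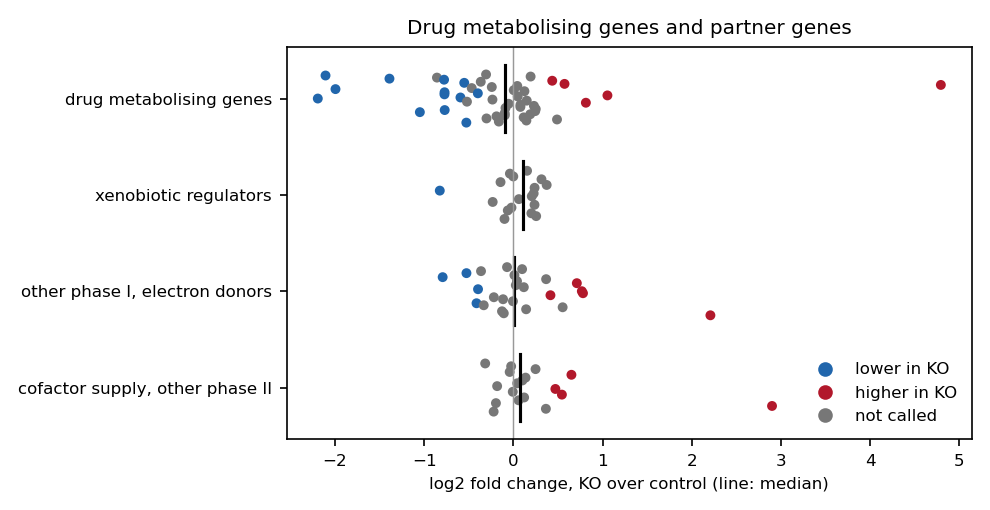
Log2 fold change, KO over control, of each tested gene (points) among the drug metabolising genes and the 3 lists of partner genes, with the median of each row (vertical line). Lower genes are blue, higher genes red and genes not called grey, and the medians are -0.10, 0.11, 0.01 and 0.08 from top to bottom.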

How the data were processed

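RNA was extracted with Trizol from 3 control and 3 FOXC1 KO samples of J82 cells, and libraries were made with the KAPA mRNA HyperPrep kit and read as pairs of 75 bases, per the labels. The authors aligned reads to hg19 with STAR and assigned them to genes of GENCODE version 19 with featureCounts of Subread, and deposited raw counts per gene. Tool versions, strand and the handling of reads with several places are not given in the sources used here, so counts of near-identical, overlapping and antisense genes are uncertain. The columns of the table matched 1 sample title each, and 0 columns belonged to other samples.

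Members and lists were chosen with earlier results of these data known. Symbols and coordinates came from GENCODE v44lift37 (GRCh37, the same assembly as hg19), which matched 55538 identifiers (96.05%). UGT1A3 and UGT1A5 did not match and were not analysed here. Genes kept by filterByExpr of edgeR 4.0.16 (R 4.3.3) were scaled with TMM and tested with edgeR's quasi-likelihood F test (robust, group as the only term). A call needed a Benjamini-Hochberg adjusted p under 0.05 over all tested genes and a fold change over 1.3, the thresholds of the study's methods, and the study's tool DESeq2 (1.42.0) was an alternative. CPM were computed from the deposited counts. Sums and ratios were compared with exact two-sided permutation tests, whose p cannot go below 0.1 here. The fit was tested on simulated data. The text names FOXC1, called members, the 3 members of each family with the highest mean CPM, members past the adjusted p alone and called partner genes, at most 8 per list, and some results are not reported here. Lengths and shared 75-base stretches came from the same annotation, which is newer than the authors' gene models, and promoters from RefSeq.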

Additional observations from a re-analysis of the deposited data

How the results depend on the processing

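Over 2 other scalings, 2 other filters, thinned counts, DESeq2, the replicate block and leaving out each library, 10 to 15 members were lower and 4 to 6 higher, and 15 of 18 called members kept their call in every alternative fitted. The exceptions were ALDH4A1, SULT1A1 and CYP3A5. Of the 15, UGT1A6, SULT1C2 and CYP4F11 were fitted in 12 of 13 alternatives and UGT1A1 in 11. They could not lose a call where they were not fitted. With a fold change over 2 (2.05% of all tested genes lower and 2.02% higher), 5 members were lower and 2 higher, and 0 partner genes lower and 2 higher. Of these members only ALDH1L1 and AKR1C2 met the minimum of 0.419 CPM in all 6 libraries. With glmTreat against 1.3-fold (3.16% and 3.3%), 6 members were lower and 3 higher, and 2 partner genes lower and 4 higher. With the adjusted p alone (14.3% and 15.2%), 9 partner genes were lower and 18 higher. These rules are stricter or looser by construction, and the counts by glmTreat and by the adjusted p alone were not restricted to that minimum. Leaving out 1 library at a time gave a median member log2 fold change from -0.19 to -0.10, a GSTA sum log2 ratio from -0.0025 (without KO replicate 3) to 0.067 and a CYP2E1 log2 fold change from -0.033 (without CTRL replicate 3) to 0.18. The cause of these sign changes was not tested. SULT1A1 lost its call with DESeq2 (adjusted p = 0.128) and with no filter (0.0510), CYP3A5 with DESeq2 (0.122) and in thinned counts (0.119), and ALDH4A1 in thinned counts (log2 fold change -0.36). AKR1C3 gained a call with a mean of at least 50 counts (-0.38). Requiring the minimum in all 6 libraries, an alternative chosen after seeing the data, left 9 lower and 4 higher. The median of all tested genes moved by less than 0.1 under every scaling. Replicate numbers did not pair the samples (correlations of deviations -0.027, -0.072 and 0.050), and the replicate block gave 13 lower and 6 higher members. The called members UGT1A1, UGT1A6, SULT1C2, CYP3A5 and CYP4F11 rest on few counts.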

Other observations

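Some members were at or near 0 in these libraries and were picked after their values were seen. ALDH7A1, a lysine breakdown enzyme, had 0 counts in 5 libraries and 1 count in KO replicate 3, although its flanking genes GRAMD2B and PHAX had 2101 to 2703 and 1372 to 1870 counts. Whether this row reflects the gene's expression was not tested. ALDH1A1, the isoform most often tied to the ALDH assay for stem-like cells, had 5, 9 and 11 counts in control and 1, 2 and 3 counts in KO libraries, without overlap but under the filter on low counts, so it was not tested.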
